A study of Mus musculus with 12 samples.

Results

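The 10 genes described here mark astrocytes or their response to injury and ageing: the intermediate filament genes Gfap and Vim, the acute phase gene Serpina3n, the water channel gene Aqp4, the glutamate transporter genes Slc1a2 and Slc1a3, the metabolic genes Glul, Aldoc and Aldh1l1, and the calcium-binding protein gene S100b. They were taken by symbol from a table of 21937 genes, and all 10 were found. All 10 also passed the filter on low values that left 14987 genes for testing, each with at least 162 reads in every sample. RNA had been sequenced from a light membrane fraction of brain enriched for myelin, the insulating sheath that oligodendrocytes form on axons. All mice were male, wild type and of the c57Bl6/N strain, and were taken at 4 ages with 3 samples each: postnatal day 18 (P18), day 75 after birth (P75), 6 months and 24 months. The labels list no treatment and no transgene. The labels do not say whether the samples came from separate animals or from pools, so p-values measure only the spread between these samples.

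Astrocytes are the glia that contact synapses, blood vessels and the nodes along myelinated axons. They take up glutamate through the transporters GLT-1 (Slc1a2) and GLAST (Slc1a3) and convert it to glutamine with glutamine synthetase (Glul), and their vascular endfeet hold the water channel aquaporin-4 (Aqp4). After injury, in inflammation and with age, astrocytes become reactive: the filament proteins GFAP and vimentin and the secreted protease inhibitor serpin A3N are classical signs of that state. Some of these genes are not exclusive to astrocytes. S100b and Glul are also transcribed in oligodendrocytes, Vim in endothelium, microglia and progenitors, and Serpina3n in oligodendrocytes under stress or disease.

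Depth was 20299052 to 27214385 gene reads per sample, with 16949 to 17261 genes detected. Values are read counts that the authors had divided by a size factor per sample, called normalised counts below. Mature oligodendrocyte markers summed to between 1289500 and 6190800 normalised counts per sample, and the 15 astrocyte markers summed to between 89659 and 142290. None of either list was at 0. The astrocyte list includes Gfap, Aqp4, Slc1a2, Slc1a3 and Aldh1l1, so its sums are not separate from the 10 genes. Without samples of unfractionated brain to set beside them, these sums cannot show how far myelin was enriched. One sample stood apart. P18 replicate 3 had Gfap, Aqp4 and S100b at 0.541, 0.395 and 0.417 times the mean of the other P18 samples, while the median over all tested genes was 1.01, and its sums of mature oligodendrocyte markers (2474400, against 4217800 and 6190800) and of astrocyte markers (89659, against 118430 and 116760) were the lowest of that age. Differences quoted for any of the 10 genes at P75 against P18, and called counts of these genes and of the gene lists there, are given with and without it. Exceptions, given with it only, are the median and the overlap count of the 10 genes and the counts of the A1 and A2 lists. Single genes of the lists are quoted from the fit of all 12 samples. In a bulk fraction, fewer cells of a type and less RNA per cell cannot be told apart.

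Together the 10 genes took a share of the summed normalised counts of 0.692% ± 0.0403 in P18 samples, 0.815% ± 0.0173 in P75 samples, 0.77% ± 0.0351 in 6-month samples and 0.777% ± 0.0183 in 24-month samples (SD, n = 3 each). Per kilobase of the longest annotated transcript, S100b had the highest level, 25900 normalised counts per kilobase averaged over the ages, ahead of Glul (13800) and Aldoc (12900). Slc1a2 (3060), Gfap (2980), Slc1a3 (2540) and Aqp4 (1180) came next on that scale, and Vim (659), Aldh1l1 (313) and Serpina3n (267) were lowest. These genes did not move as a block. Of the 10, 7 differed at some age in limma's F test with Benjamini-Hochberg adjustment over all genes, against 77.4% of all genes tested. The exceptions were Aqp4 (adjusted p = 0.168), Slc1a2 (0.491) and Glul (0.168).

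At P75 against P18, 1 of the 10 genes was higher and 2 were lower (2 and 2 without P18 replicate 3), where 40.4% of all genes were called in either direction, 21.7% higher and 18.7% lower; 4 of the 10 had no overlap between the 3 and 3 values, as had 47.1% of all genes. At 6 months against P75, 2 were higher and 2 lower, where 52.4% of all genes were called, 27.1% higher and 25.4% lower; 5 of the 10 and 62.3% of all genes had no overlap. At 24 months against 6 months, 3 were higher and none lower, where 19.2% were called, 10.8% higher and 8.34% lower; 4 of the 10 and 43.2% of all genes had no overlap. At 24 months against P75, 3 were higher and 2 lower, where 45.6% were called, 25% higher and 20.7% lower; 8 of the 10 and 56.9% of all genes had no overlap. The median log2 difference of the 10 genes was 0.21, -0.01, -0.01 and 0.06 in that order, against 0.02, 0.00, 0.03 and -0.00 over all genes tested. The 0.21 and the overlap count at P75 against P18 depend on P18 replicate 3. Without it Aqp4 went from 0.29 to -0.16 and S100b from 0.65 to 0.23, while Serpina3n went from 0.36 to 0.45. Comparisons next to each other share the samples of an age, so their calls are not independent.

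**Figure D1:**
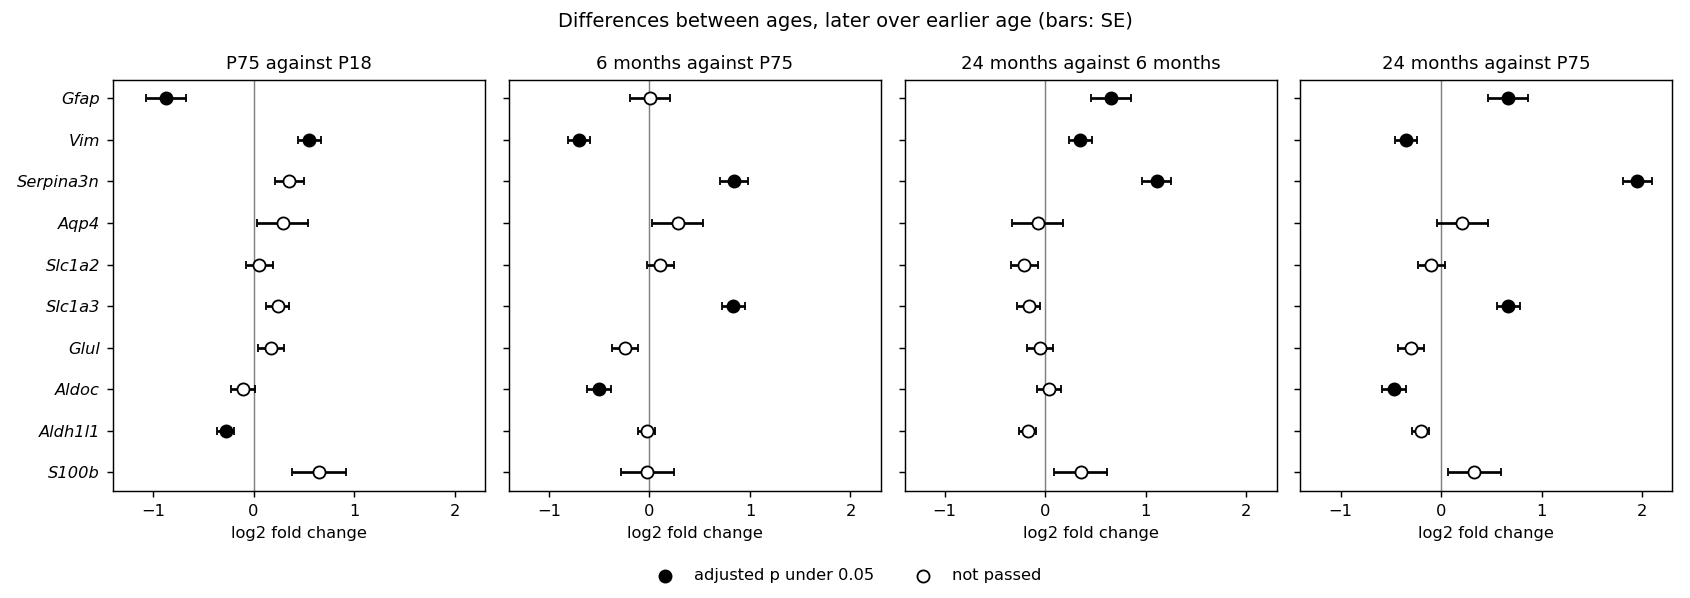
Log2 fold changes of the 10 genes in 4 comparisons, the later age over the earlier; bars are standard errors of the limma fit and filled points passed at an adjusted p of 0.05. At 24 months against 6 months the filled points are Gfap, Vim and Serpina3n, all to the right of 0.

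Serpina3n, which encodes a secreted inhibitor of serine proteases, had the widest range of the 10: its highest age mean was 4.95 times its lowest. Its normalised counts were 251, 183 and 261 at P18, then 272, 309 and 302 at P75, 609, 504 and 477 at 6 months, and 1022, 1055 and 1364 at 24 months. The ages were ordered P18, P75, 6 months and 24 months, and no neighbours in that order overlapped. It rose 2.16-fold at 24 months over 6 months (log2 1.11 ± 0.14 SE, limma adjusted p = 0.000268) and 1.79-fold at 6 months over P75 (log2 0.84 ± 0.14, adjusted p = 0.000136). The 24-month level was 3.86 times that of P75 (log2 1.95 ± 0.14, adjusted p = 1.69e-07). At P75 it stood 0.36 ± 0.14 above P18 on the log2 scale, which did not pass (adjusted p = 0.0549), and it passed without P18 replicate 3 (log2 0.45, adjusted p = 0.0185). Of 10 related genes of the Serpina3 cluster, copies whose shared reads the counting could split, only Serpina3g reached the filter; it averaged 16.2 normalised counts at P75 and 32.3 at P18 (log2 -0.96 ± 0.29, adjusted p = 0.0151; also lower without P18 replicate 3) and did not pass between later ages.

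Gfap encodes the main intermediate filament of mature astrocytes and is the most used marker of their reactivity. Its normalised counts were 14618, 11249 and 6991 at P18, 6070, 5569 and 5547 at P75, 5654, 7255 and 4665 at 6 months, and 9040, 8344 and 9865 at 24 months. P18 and 24 months overlapped each other and were above P75, while the 6-month samples bracketed those of P75. Gfap fell to 5729 ± 296 at P75, against 10953 ± 3822 at P18 (SD, n = 3 each; log2 -0.87 ± 0.20 SE, limma adjusted p = 0.00234), and it fell by 1.16 on the log2 scale without P18 replicate 3 (adjusted p = 7.91e-06). The 6-month mean of 5858 ± 1307 did not differ detectably from P75 (adjusted p = 0.972). At 24 months it averaged 9083 ± 761, 1.57 times the 6-month level (log2 0.65 ± 0.20, adjusted p = 0.0319) and 1.58 times that of P75 (log2 0.66 ± 0.20, adjusted p = 0.0123). All 3 values at 24 months lay above all 3 at 6 months, but the call against 6 months was lost on leaving out any 1 of 5 of these 6 samples (adjusted p from 0.064 to 0.117); it held without 6 months replicate 2. The call against P75 was kept in all 25 alternatives (adjusted p at most 0.0493).

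Vim encodes vimentin, the filament partner of GFAP that immature and reactive astrocytes carry. Its course differed from that of Gfap. The normalised counts were 1747, 1479 and 1888 at P18, 2139, 2579 and 2804 at P75, 1434, 1736 and 1452 at 6 months, and 1874, 1994 and 2001 at 24 months. The P75 samples were above those of every other age. Vim rose at P75 over P18 (log2 0.55 ± 0.11 SE, limma adjusted p = 0.000976; 0.63 without P18 replicate 3), the comparison in which Gfap fell, and it fell at 6 months below P75 (log2 -0.70 ± 0.11, adjusted p = 8.44e-05). At 24 months it was 1.27 times the 6-month level (log2 0.35 ± 0.11, adjusted p = 0.0399) and 0.785 times that of P75 (log2 -0.35 ± 0.11, adjusted p = 0.0182). The first of these calls was lost in 9 of 25 alternatives (adjusted p up to 0.144), among them each omission of 6 months replicate 1 or 3 or of a 24-month sample, and the second in 3, without P75 replicate 2 or 3 or 24 months replicate 1 (up to 0.0915).

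Other intermediate filament and linker genes were listed beside these, among them Des and the nuclear lamin genes, which are not particular to astrocytes. Of the 8 tested, none passed at 24 months against 6 months or against P75, where 19.2% and 45.6% of all genes were called. At P75 against P18, 2 were higher and 2 lower (3 and 1 without P18 replicate 3), and at 6 months against P75 only Dst was higher. Of all genes, 40.4% and 52.4% were called in these comparisons. Synm, whose product synemin joins GFAP and vimentin filaments, averaged 1349 normalised counts at P75 and 545 at P18 (log2 1.35 ± 0.19 SE, limma adjusted p = 4.93e-05). Its P18 replicates held 624, 658 and 354. Nes, the nestin gene of progenitors and reactive astrocytes, was low throughout, at 48.4 at P75 and 76.7 at P18 (log2 -0.68 ± 0.24, adjusted p = 0.0303).

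Gfap, Vim and Serpina3n were the only members called higher at 24 months than at 6 months. The bases just upstream of their RefSeq genes are shown because these 3 were called in the same direction there. Each line is the strand of the gene, 5′ to 3′, in GRCm38.p6, a later build than the one the reads were mapped to: chr11:102897201-102897450 on the minus strand for Gfap, chr2:13574061-13574310 on the plus strand for Vim and chr12:104406458-104406645 on the plus strand for Serpina3n. The last is 188 bases long and the others 250. Capitals mark matches to 3 motifs searched on both strands: TTCNNNGAA, the core bound by STAT factors, TATAAA, the TATA box, and CCAAT, the CCAAT box, written ATTGG where it lies on the opposite strand.
Gfap: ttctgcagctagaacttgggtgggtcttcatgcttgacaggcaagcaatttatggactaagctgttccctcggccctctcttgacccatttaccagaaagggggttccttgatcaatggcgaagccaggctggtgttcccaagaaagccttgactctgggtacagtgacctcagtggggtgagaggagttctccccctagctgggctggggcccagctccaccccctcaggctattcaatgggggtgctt
Vim: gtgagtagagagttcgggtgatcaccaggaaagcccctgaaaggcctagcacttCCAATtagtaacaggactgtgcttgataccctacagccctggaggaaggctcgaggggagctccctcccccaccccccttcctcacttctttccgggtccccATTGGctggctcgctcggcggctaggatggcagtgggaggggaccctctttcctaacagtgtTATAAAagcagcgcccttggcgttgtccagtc
Serpina3n: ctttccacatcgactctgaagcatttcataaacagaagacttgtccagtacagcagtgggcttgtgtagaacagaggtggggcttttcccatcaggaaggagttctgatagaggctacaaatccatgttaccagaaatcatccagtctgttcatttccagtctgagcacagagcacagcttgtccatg
Vim held 1 TATAAA, which ended 26 bases before the end of the window, and 2 CCAAT matches, and the windows of Gfap and Serpina3n held none of the 3 motifs. In the first 250 bases of all 32851 mouse promoter windows, 7.02% hold TTCNNNGAA, 12.4% TATAAA and 33.8% CCAAT; in the first 188 bases the shares are 5.49%, 8.65% and 26.4%. A match or its absence is a description of these letters only.

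The glutamate transporter genes behaved differently from each other. Slc1a3, the GLAST gene, had normalised counts of 7587, 7660 and 6628 at P18, 9324, 7446 and 9179 at P75, 16798, 14362 and 14951 at 6 months, and 12164, 14490 and 14541 at 24 months. Every sample of 6 and 24 months was above every sample of P18 and P75; the ages within each of these pairs overlapped. The 6-month level was 1.78 times that of P75 (log2 0.83 ± 0.11 SE, limma adjusted p = 2.03e-05), and the 24-month level was 1.59 times that of P75 (log2 0.67 ± 0.11, adjusted p = 0.00022). Slc1a2, which encodes GLT-1, the main glutamate transporter of the forebrain, had 35928, 37796 and 29585 at P18, 36374, 33137 and 37538 at P75, 41067, 39943 and 34617 at 6 months, and 30181, 35386 and 34533 at 24 months. All 4 ages overlapped with their neighbours in the order of levels, its highest age mean was 1.16 times its lowest, and none of its 4 comparisons passed. Slc1a3 stood at log2 0.24 at P75 against P18 (limma adjusted p = 0.105), and at 0.175 without P18 replicate 3 (adjusted p = 0.250); it passed with libraries scaled to equal sums (adjusted p = 0.0324) and without P75 replicate 2 (0.0347). Slc1a2 stood at 0.06 in the same comparison, and at -0.05 without P18 replicate 3.

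Glul, which makes glutamine from the glutamate taken up, had 37088, 38121 and 40533 normalised counts at P18, 45604, 44879 and 40055 at P75, 35489, 41615 and 33325 at 6 months, and 37199, 34688 and 34200 at 24 months. The 24-month samples lay below all P75 samples, by 0.30 ± 0.13 on the log2 scale, which did not pass (limma adjusted p = 0.068). It passed in 6 of 25 alternatives, among them without P18 replicate 3 (adjusted p = 0.0452) and DESeq2 on recovered reads (0.0058).

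Of 18 other genes of glutamate and glutamine handling, 9 were higher and 1 lower at P75 than at P18, and 9 and 2 without P18 replicate 3. At 6 months against P75, 12 were higher and 1 lower, with a median log2 difference of 0.42 against 0.003 over all genes tested. At 24 months against 6 months, 3 were higher and 3 lower. Of all genes, 40.4%, 52.4% and 19.2% were called in these comparisons, in that order. Slc38a3, a glutamine exporter of astrocytes, averaged 1400 normalised counts at P75 and 829 at P18 (log2 0.78 ± 0.14 SE, limma adjusted p = 0.00039), and 2010 at 6 months (log2 0.52 ± 0.14 over P75, adjusted p = 0.00504). Slc1a4, a neutral amino acid transporter, averaged 1320 at 6 months and 739 at P75 (log2 0.84 ± 0.10, adjusted p = 6.52e-06). Slc1a1, the neuronal glutamate transporter EAAC1, averaged 1930 at 6 months and 1045 at P75 (log2 0.88 ± 0.10, adjusted p = 3.43e-06). Of 12 neuron markers, 7 were higher and 3 lower at 6 months than at P75, with a median log2 difference of 0.37, while their sums, led by Snap25, lay between 224240 and 232620 at 6 months and between 230120 and 259040 at P75. Their part in the differences of the glutamate genes was not tested.

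Got2, the mitochondrial aspartate aminotransferase, alternated between ages. Its normalised counts were 2574, 2825 and 2734 at P18, 1527, 1598 and 1414 at P75, 4081, 3883 and 3513 at 6 months, and 2042, 2079 and 2322 at 24 months, without overlap between any 2 ages. It fell at P75 (log2 -0.84 ± 0.09 SE against P18, limma adjusted p = 2.89e-06), rose at 6 months (log2 1.34 ± 0.09 over P75, adjusted p = 2.54e-08) and fell at 24 months (log2 -0.83 ± 0.09 against 6 months, adjusted p = 4.52e-05).

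Aldoc, the aldolase isoform of astrocytes in the forebrain, was lower at the later ages. Its normalised counts were 43079, 45149 and 44028 at P18, 38968, 44188 and 40338 at P75, 27771, 32010 and 27465 at 6 months, and 30521, 28974 and 29567 at 24 months. Samples of P18 and P75 overlapped, as did those of 6 and 24 months, with a gap between the pairs. The 6-month level was 0.706 times that of P75 (log2 -0.50 ± 0.12 SE, limma adjusted p = 0.00216) and the 24-month level 0.722 times (log2 -0.47 ± 0.12, adjusted p = 0.0044). Aldoa, the widely expressed isoform, averaged 43500 at 6 months and 55330 at P75, a difference that did not pass (log2 -0.33 ± 0.16, adjusted p = 0.0869), and 38950 at 24 months, where it passed against P75 (log2 -0.49 ± 0.16, adjusted p = 0.0181). Aldolase pseudogenes can share reads with Aldoa, so its level is uncertain.

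Most other glycolysis genes took another course from Aldoc. Of 17, 9 were higher and 2 lower at 6 months than at P75, 1 was higher and 9 lower at 24 months than at 6 months, and 1 was higher and 7 lower at P75 than at P18 (6 lower without P18 replicate 3, and 2 with libraries scaled to equal sums). The shares called among all genes were 52.4%, 19.2% and 40.4%, in that order. Pgk1 averaged 14520 normalised counts at 6 months and 8519 at P75 (log2 0.77 ± 0.09 SE, limma adjusted p = 3.13e-06), then 10920 at 24 months (log2 -0.41 ± 0.09 against 6 months, adjusted p = 0.00546). Tpi1 did likewise, with 12730 at 6 months and 8164 at P75 (log2 0.64 ± 0.09, adjusted p = 2.41e-05) and 9449 at 24 months (log2 -0.43 ± 0.09 against 6 months, adjusted p = 0.00528). Glycolysis genes such as these have processed pseudogenes, and levels may miss shared reads.

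Aldh1l1, whose product oxidises formyl-tetrahydrofolate and which marks astrocytes broadly, was lower at P75 than at P18. It had 1502, 1645 and 1531 normalised counts at P18, 1235, 1417 and 1219 at P75, 1280, 1343 and 1170 at 6 months, and 1137, 1145 and 1072 at 24 months. The P18 samples were above those of every later age and the 24-month samples below those of every earlier age. P75 against P18 gave log2 -0.28 ± 0.09 SE (limma adjusted p = 0.0166), a call kept without P18 replicate 3 (log2 -0.29, adjusted p = 0.0179) but lost without P18 replicate 2, P75 replicate 1 or P75 replicate 3 (adjusted p from 0.0619 to 0.0711) and with libraries scaled to equal sums (0.275). At 6 months it stood at log2 -0.03 against P75 (adjusted p = 0.799), and at 24 months at -0.18 against 6 months (adjusted p = 0.156). At 24 months it lay 0.20 ± 0.09 below P75 on the log2 scale, which did not pass (adjusted p = 0.0608), though it did in 5 of 25 alternatives, among them without P18 replicate 3 (0.0471). Of 13 other folate genes, 1 was higher and 1 lower at P75 than at P18 (3 and 2 without P18 replicate 3), 3 were higher and 6 lower at 6 months than at P75, and 1 was higher and 1 lower at 24 months than at 6 months. Among all genes 40.4%, 52.4% and 19.2% were called there, in that order. Aldh1l2, the mitochondrial counterpart of Aldh1l1, averaged 213 at P75 and 139 at P18 (log2 0.61 ± 0.15, adjusted p = 0.00353), opposite in direction to Aldh1l1.

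None of the 4 comparisons passed for Aqp4 or S100b. Aqp4 had 6759, 5690 and 2458 normalised counts at P18, 5724, 4644 and 6485 at P75, 7203, 6623 and 6510 at 6 months, and 5426, 6920 and 7096 at 24 months. Its lowest value came from P18 replicate 3, which gave that age a coefficient of variation of 45.1%. P75 stood 0.29 ± 0.25 above P18 on the log2 scale (limma adjusted p = 0.388), and without P18 replicate 3 it stood 0.16 below (adjusted p = 0.378).

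S100b had 31220, 35077 and 13823 normalised counts at P18, 43500, 33931 and 39724 at P75, 29905, 49001 and 38354 at 6 months, and 51691, 50967 and 44188 at 24 months. The 24-month samples were above those of P75 and P18, and all ages next to each other in level overlapped. It differed at some age (adjusted p = 0.0202). At P75 it stood 0.65 ± 0.27 above P18 on the log2 scale (adjusted p = 0.0604), which was 0.23 without P18 replicate 3 (adjusted p = 0.316). It passed without P18 replicate 1 (log2 0.82, adjusted p = 0.0365) or replicate 2 (log2 0.90, adjusted p = 0.0161) and with libraries scaled to equal sums (log2 0.78, adjusted p = 0.00759).

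Most other genes of the S100 family, listed with their receptor gene Ager, differed between 6 months and P75. Of 12 tested, 11 were lower and none higher at 6 months than at P75, with a median log2 difference of -1.16, where S100b itself stood at -0.02 ± 0.27 (limma adjusted p = 0.956). At 24 months against 6 months, 6 were higher and none lower. Of all genes, 25.4% were lower at 6 months against P75 and 10.8% higher at 24 months against 6 months. S100a6 had 278, 401 and 374 normalised counts at 6 months, against 766, 1026 and 1065 at P75 (log2 -1.44 ± 0.14 SE, adjusted p = 1.17e-06), and 674, 640 and 540 at 24 months (log2 0.83 ± 0.14 over 6 months, adjusted p = 0.00196). S100a1 averaged 1672 at 6 months and 3619 at P75 (log2 -1.12 ± 0.11, adjusted p = 9.43e-07). S100a8 and S100a9 were among those called in both comparisons, at low and scattered counts. S100a8 held 19.0, 36.2 and 78.5 at P75, 6.50, 6.21 and 2.92 at 6 months, and 50.5, 114 and 13.9 at 24 months. With the trend on transcript length removed, the S100 counts were 8 lower at 6 months against P75 and 3 higher at 24 months against 6 months.

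The endfoot and ion-buffering genes that work beside Aqp4 were more often called higher than lower at the later age: 9 of 16 higher and 3 lower at P75 against P18, 8 higher and 1 lower at 6 months against P75, and 3 higher and 1 lower at 24 months against 6 months. Without P18 replicate 3 the first count was 7 higher and 3 lower. Of all genes, 21.7%, 27.1% and 10.8% were higher in these comparisons, and 18.7%, 25.4% and 8.34% lower. In the last, the median log2 difference of the list was -0.04, against 0.03 over all genes. Kcnj10, the potassium channel Kir4.1 of astrocytes and oligodendrocytes, had 7026, 7436 and 5732 normalised counts at 6 months, against 4617, 3508 and 3682 at P75 (log2 0.78 ± 0.19 SE, limma adjusted p = 0.00226). Gja1, the gap junction gene connexin 43, averaged 7487 at 6 months and 5961 at P75 (log2 0.34 ± 0.13, adjusted p = 0.0375). Clcn2, a chloride channel needed for intact white matter, was higher at each age than at the one before, with 336, 537, 715 and 1020 from P18 to 24 months (adjusted p at most 0.00845). Dag1, dystroglycan, which anchors Aqp4 at the endfoot, had 647, 451 and 477 at 6 months, against 94.2, 68.6 and 60.8 at P75 (log2 2.81 ± 0.18, adjusted p = 2.33e-08).

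Genes listed in mouse studies as induced in reactive astrocytes were examined beside the 3 reactivity members. Of the 10 on the pan-reactive list, 9 were tested: 6 were higher and none lower at 24 months than at 6 months, with a median log2 difference of 1.32, and 7 were higher and none lower at 24 months than at P75. The 6 were Osmr, Lcn2, Cxcl10, Timp1, Aspg and Hspb1. At P75 against P18, 2 were higher and none lower (4 higher without P18 replicate 3), and at 6 months against P75, 3 were higher and 2 lower. Leaving out 1 sample at a time gave 4 to 7 higher at 24 months against 6 months. A1 genes are induced by inflammation and A2 genes by ischaemia. Their lists had 7 of 11 and 4 of 8 higher at 24 months than at 6 months and none lower. The medians were 0.66 and 0.46, and the omissions gave 6 to 10 and 2 to 5 higher. These lists were also higher earlier. At P75 against P18, 6 and 3 were higher and 1 and none lower, with medians of 0.58 and 0.43. At 6 months against P75, 5 and 3 were higher and 1 of each list lower, with medians of 0.20 and 0.30. Of all genes, 21.7% were higher at P75 against P18, 27.1% at 6 months against P75 and 10.8% at 24 months against 6 months.

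Osmr, the receptor subunit for oncostatin M, had 80.2, 114 and 102 normalised counts at 24 months, against 43.9, 36.4 and 35.0 at 6 months (log2 1.33 ± 0.20 SE, limma adjusted p = 0.000789). All 24-month samples were above all others. Lcn2, which encodes lipocalin 2, an iron-carrier-binding protein of inflammation, had 25.8, 211 and 38.9 at 24 months, against 4.87, 0.89 and 3.89 at 6 months (log2 4.01 ± 0.71, adjusted p = 0.00214). Its 24-month value rested most on replicate 2, and P18 replicate 3 also held 31.1. Cp, the ferroxidase ceruloplasmin, was already higher at 6 months, with 243, 227 and 209, against 75.2, 63.0 and 60.8 at P75 (log2 1.76 ± 0.18, adjusted p = 1.23e-06), and at 24 months it held 227, 301 and 280 (log2 0.24 ± 0.18 over 6 months, adjusted p = 0.359).

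Among A1 genes, Serping1, the inhibitor of complement C1, had mean normalised counts of 126 (P75), 299 (6 months) and 371 (24 months) and was higher at 24 months than at P75 (log2 1.55 ± 0.12 SE, limma adjusted p = 1.94e-07). Fbln5, an elastic fibre protein, averaged 530 at 24 months and 278 at 6 months (log2 0.94 ± 0.14, adjusted p = 0.000661). H2-D1, a class I antigen-presenting molecule of many cell types, averaged 1392 at 24 months and 905 at 6 months (log2 0.62 ± 0.12, adjusted p = 0.00299), and reads shared with other H2 genes make its level uncertain. Among A2 genes, S100a10 averaged 1099 at 24 months and 778 at 6 months (log2 0.51 ± 0.11, adjusted p = 0.00685) but was highest at P75, at 1796.

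Microglia also transcribe several of these genes, and endothelium others. The 11 microglia markers summed to between 4964 and 6620 normalised counts at P18, between 8477 and 9929 at P75, between 10180 and 11777 at 6 months and between 14805 and 17863 at 24 months, without overlap between ages; 4 of the 11 were higher and none lower at 24 months than at 6 months. Of all genes, 10.8% were higher at 24 months than at 6 months. The 15 astrocyte markers summed to between 120010 and 138710 at 24 months and between 127160 and 142290 at 6 months, with overlap. Those sums include Gfap, Aqp4, Slc1a2, Slc1a3 and Aldh1l1 themselves. Endothelial markers summed to between 2780 and 2929 at 24 months and between 2460 and 2680 at 6 months. Radial glia and progenitor markers summed to between 3180 and 4092 at 24 months and between 3757 and 4142 at 6 months, and ependymal markers to between 360 and 394 at 24 months and between 345 and 407 at 6 months. No marker of these lists was at 0 in any age. The part of these cell types in the higher reactive genes was not tested.

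**Figure D2:**
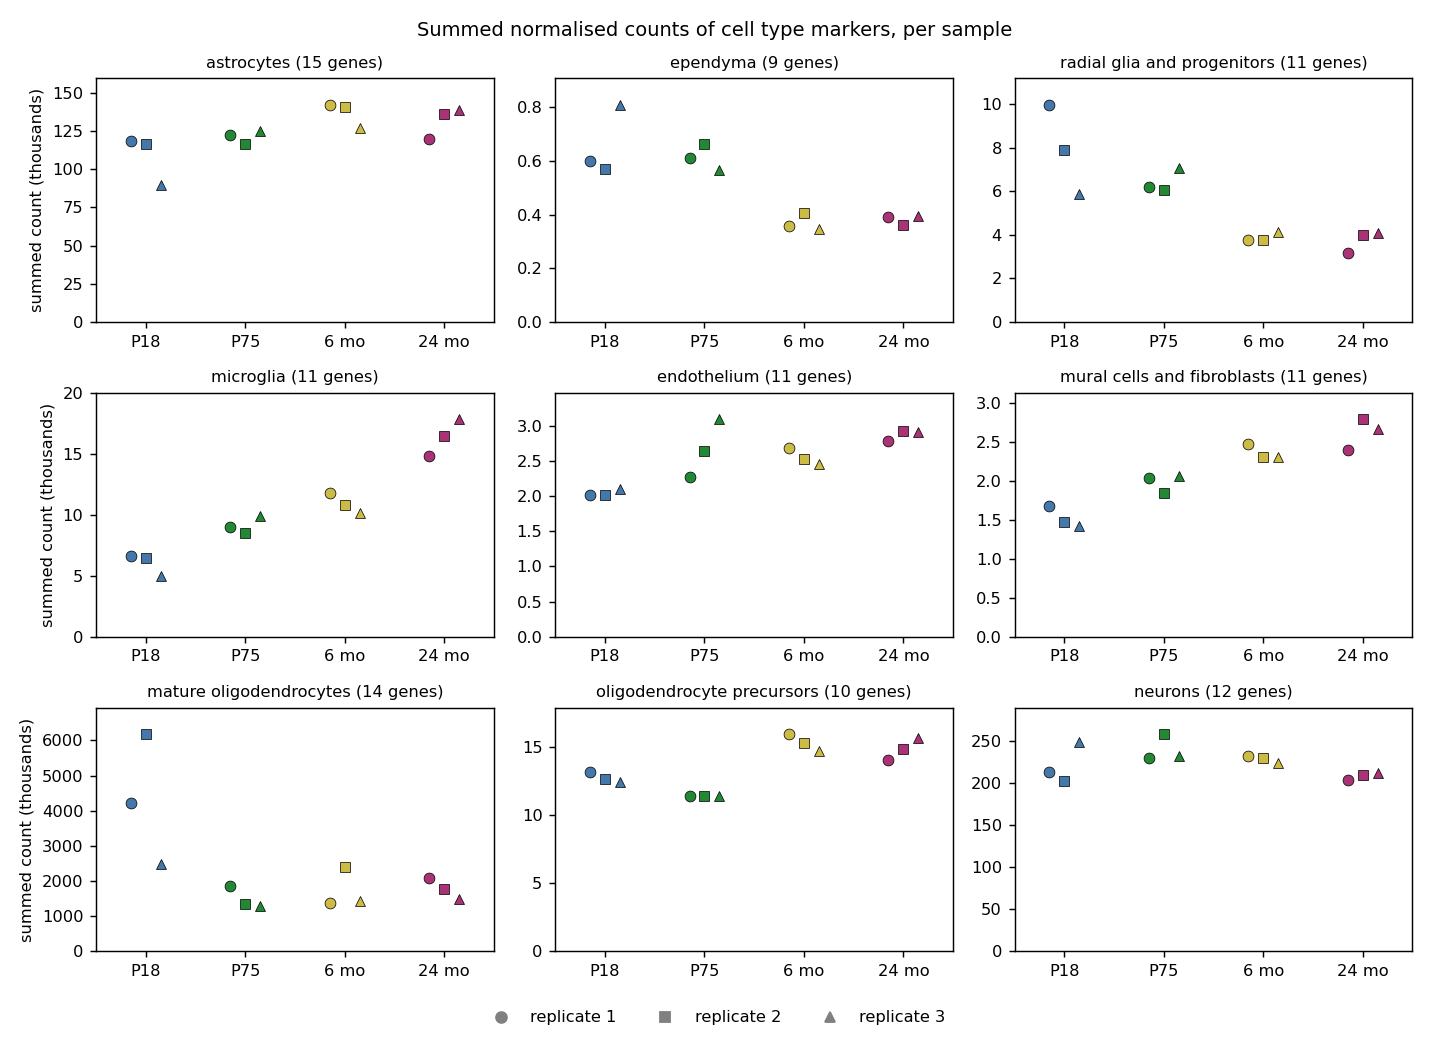
Summed normalised counts, on axes from 0, of the markers of 9 cell types in each sample by age; symbols mark the replicate. Microglia sums lie between 14805 and 17863 at 24 months, above all other ages, while astrocyte sums at 6 and 24 months overlap. The astrocyte markers include Gfap, Aqp4, Slc1a2, Slc1a3 and Aldh1l1.

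Of 21 signalling genes upstream of reactivity, 4 were higher and 4 lower at 24 months against 6 months, and 10 were higher and 6 lower at 6 months against P75. With libraries scaled to equal sums the first count was 1 higher and 3 lower, and with the length trend removed the second was 6 higher and 7 lower. Of all genes, 19.2% were called at 24 months against 6 months and 52.4% at 6 months against P75. Stat3, the transcription factor that GFAP induction depends on in injury models, averaged 719 normalised counts at 24 months and 806 at 6 months (log2 -0.16 ± 0.08 SE, limma adjusted p = 0.178), and the 6-month level passed against the 601 of P75 (log2 0.42 ± 0.08, adjusted p = 0.000515). Nfia, a factor that drives astrocyte formation, was lower at each age than at the one before: its means were 2287 (P18), 1510 (P75), 891 (6 months) and 680 (24 months) (adjusted p at most 0.00469). Tgfbr2, a receptor for TGF-beta, was higher at each age than at the one before, at 129, 224, 294 and 397 (adjusted p at most 0.0265). Id1, a target of BMP signalling, averaged 167 at 24 months and 124 at 6 months (log2 0.43 ± 0.13, adjusted p = 0.0263), after 329 at P75.

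Astrocyte identity genes outside the 10 were more often higher than lower at P75 and at 6 months. All 36 listed were tested and all 36 differed at some age, where 77.4% of all genes did. At P75 against P18, 21 were higher and 4 lower, with a median log2 difference of 0.39; without P18 replicate 3 these were 19 and 6, with a median of 0.31. At 6 months against P75, 16 were higher and 5 lower, at 24 months against 6 months 2 were higher and 3 lower, and at 24 months against P75 13 were higher and 6 lower. Fewer calls at 24 months against 6 months than in the other comparisons was also the course of all genes, of which 19.2% were called there, 52.4% at 6 months against P75 and 40.4% at P75 against P18. Mfge8, which tags debris for engulfment, averaged 1407 normalised counts at P75 and 719 at P18 (log2 0.99 ± 0.14 SE, limma adjusted p = 4.33e-05) and 2606 at 6 months (log2 0.89 ± 0.14 over P75, adjusted p = 6.2e-05). Cldn10, a claudin used as an astrocyte marker, averaged 1977 at P75 and 930 at P18 (log2 1.09 ± 0.10, adjusted p = 9.63e-07). Id3, an inhibitor of differentiation factors, fell at P75 to 760, against 1334 at P18, and at 6 months to 446 (log2 -0.77 ± 0.12 against P75, adjusted p = 5.72e-05).

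**Figure D3:**
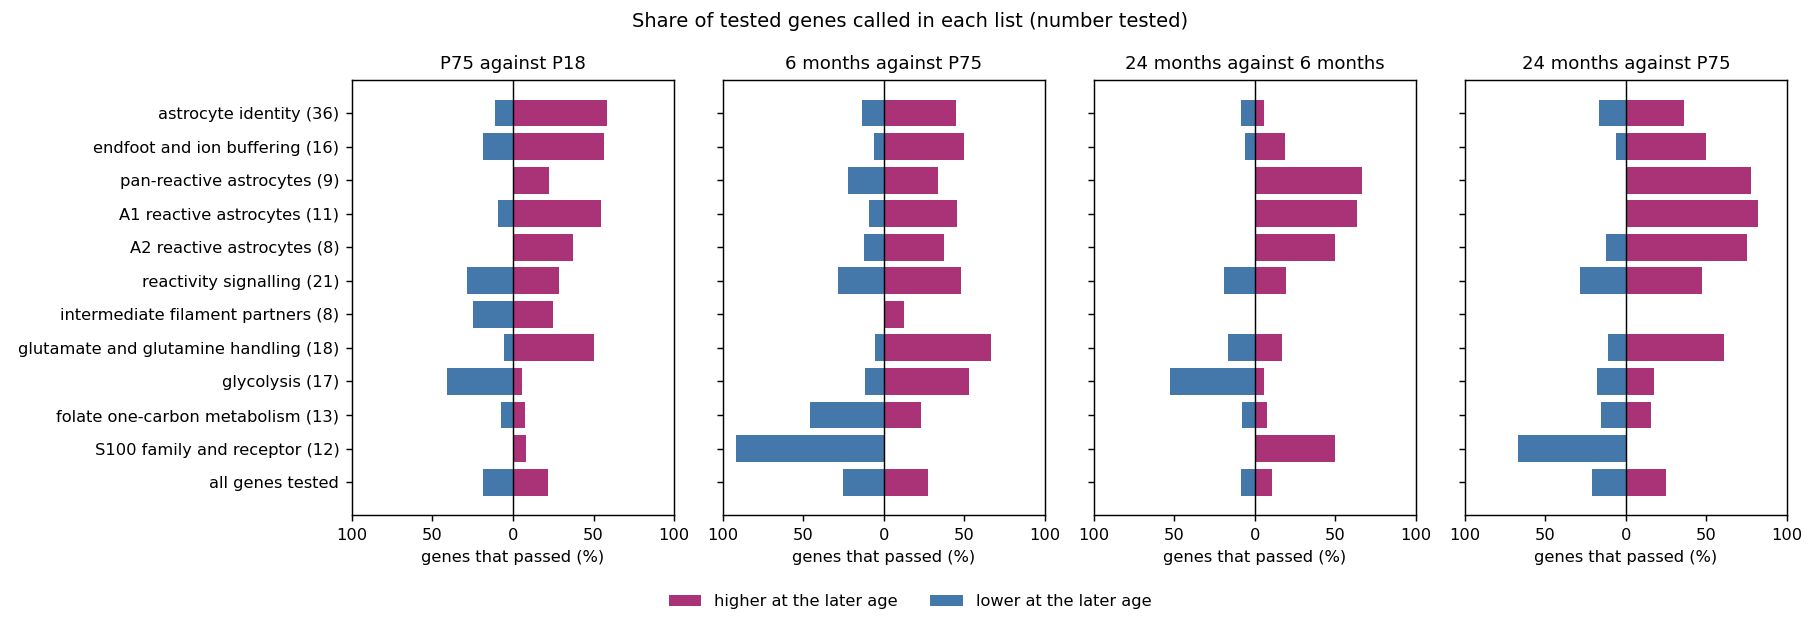
Share of the tested genes of each list, and of all genes tested, that passed as higher (right) or lower (left) at the later age in 4 comparisons; list sizes are in parentheses. The 3 reactive lists reach 50% or more higher and none lower at 24 months against 6 months, where 10.8% of all genes were higher, and 11 of 12 genes of the S100 family and its receptor are lower at 6 months against P75.

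The genes whose levels ran most like each member over the 12 samples were sought among 6766 genes with a mean of at least 500 normalised counts, by Pearson's r of log2(value + 1). These r values are descriptions over samples that share ages and libraries. Serpina3n ran with C1qa (r = 0.985), a complement gene of microglia, and with the lysosomal proteases Ctsl (0.976) and Lgmn (0.969). Slc1a3 ran with Clcn3 (0.993), Pcdh17 and Caprin1, Aldoc with Arpc1a (0.991), Acaa1a and Hsd17b10, and Aldh1l1 with Gpd1 (0.969), Pdk2 and Pcyt1b. Aqp4 ran with Gjb1 (0.951), the connexin 32 gene of oligodendrocytes, Acbd3 and Mpp5, and S100b with Anp32b (0.954), Bcas1 (0.952), an oligodendrocyte gene, and Ankrd40. Likeness was looser for Vim (Nsmce4a at 0.921, Armcx1, Tob1), Slc1a2 (Sash1 at 0.877, Eps15, Smad5), Gfap (Npc2 at 0.872, Lass2, Elovl1) and Glul (Efr3b at 0.869, Akr1b10, Acaa2). Among the members themselves the closest were Serpina3n and Slc1a3 (0.794), Aldoc and Aldh1l1 (0.781), and Aqp4 and S100b (0.775), while Gfap reached no more than 0.292, with Aldh1l1. The r of Aqp4 and S100b rested on P18 replicate 3: over the other 11 samples it was 0.015. Without that sample the r of Aqp4 with Gjb1 was 0.812, that of S100b with Anp32b was 0.970 and with Bcas1 0.887, that of Serpina3n with Slc1a3 was 0.785 and that of Aldoc with Aldh1l1 was 0.748.

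Differences between ages moved with transcript length across the whole table. Genes were split by length into 5 bins of equal size. In the bin of the shortest transcripts the median log2 difference was -0.33 at 6 months against P75 and 0.19 at 24 months against 6 months, and in the bin of the longest it was 0.15 and -0.09. Gfap, Vim, Serpina3n, Aldoc and Glul lie in the bin next to the shortest, where these medians were -0.01 and 0.06, and S100b in the shortest bin, whose medians are given above. Slc1a3, Aqp4 and Aldh1l1 lie in the bin next to the longest, with medians of 0.135 and -0.028, and Slc1a2 in the longest. Removing the trend, a step added after seeing the data, ended the calls of Gfap (log2 0.58, limma adjusted p = 0.0565) and Vim (log2 0.29, adjusted p = 0.0796) at 24 months against 6 months, and brought those of Aldh1l1 (log2 -0.37, adjusted p = 0.0019) and Glul (log2 -0.41, adjusted p = 0.0107) at 24 months against P75. The calls of Serpina3n, Slc1a3 and Aldoc were kept. The share of higher genes among all called was 56.5% at 24 months against 6 months, 43% with the trend removed and 46.3% with libraries scaled to equal sums; at 24 months against P75 it was 54.7%, and 41.4% with the trend removed. At P75 against P18 it was 53.7%, and 73.7% with equal sums, which moved the median log2 difference of all genes to 0.14.

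**Figure D4:**
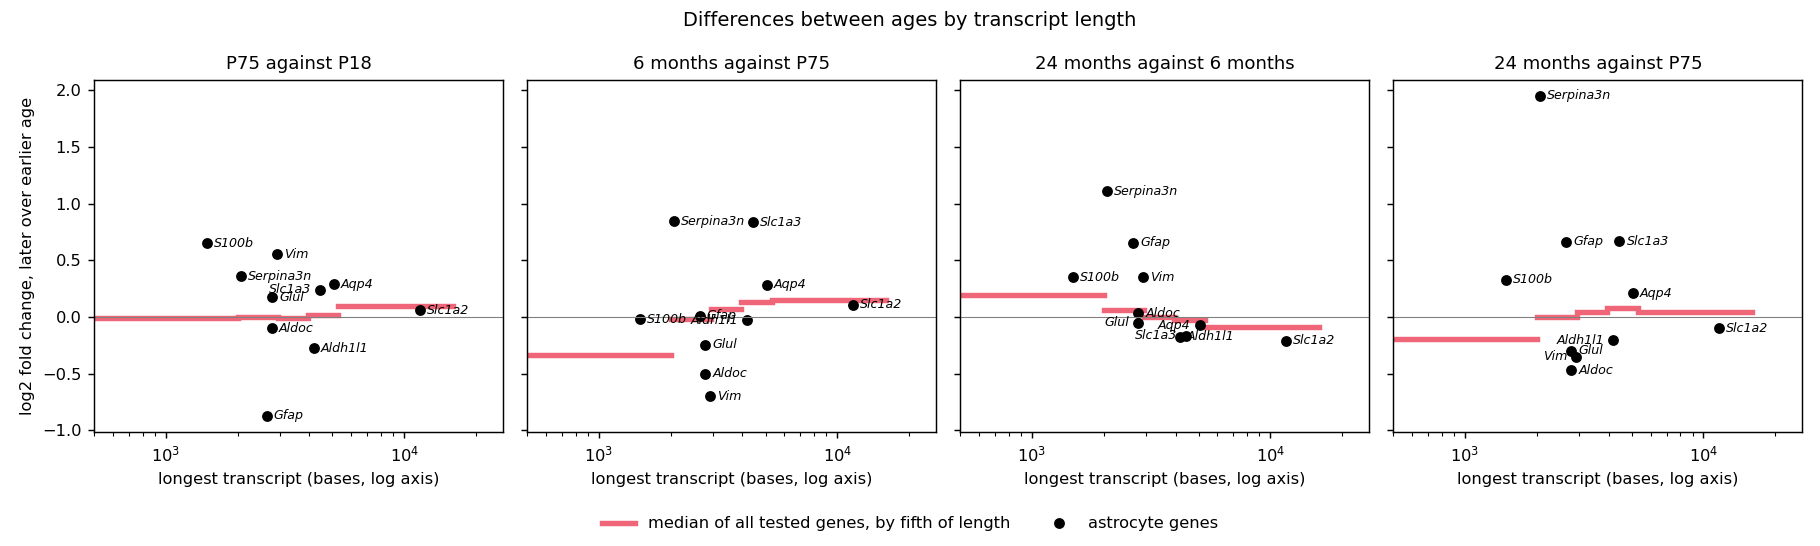
Log2 fold change, later over earlier age, of the 10 genes against the length of the longest annotated transcript on a log axis, with the median of all tested genes in each of 5 bins of length as red bars (outermost bars cut short). Serpina3n lies far above the bar of its bin in the 3 comparisons of later ages, and the bars step up with length at 6 months against P75 and down at 24 months against 6 months.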

How the data were processed

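Per the labels, RNA of a myelin-enriched membrane fraction was sequenced from male mice at 4 ages; RNA extraction, library construction and strand setting are not given in the sources used here. The signal deposited by the authors was checked on its values: every column steps in whole multiples of 1 size per sample (100% of values within 0.1 read), so it is a read count over a size factor, and whole reads were recovered. In 3 of the 12 columns that step is close to 1. The submitters' processing notes name TopHat, HTSeq, DESeq and the build mm9, without versions or roles. Depth ranged from 20299052 to 27214385 reads.

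Genes with a value of at least 10 in at least 3 samples were tested (14987) on log2(value + 1), which understates changes of low genes. All 12 samples entered a single trended fit by age group (limma 3.58.1, R 4.3.3), two-sided, with Benjamini-Hochberg adjustment over all genes and a threshold of 0.05. Alternatives were other pseudocounts (0.5 and 5), filters and scalings, fits on the compared ages alone, the replicate number as a block, leaving out each sample, and count tests on recovered reads with edgeR 4.0.16 and DESeq2 1.42.0. On recovered reads edgeR called 5982 genes between P75 and P18 (limma 6051), 7956 between 6 months and P75 (limma 7859), 3185 between 24 and 6 months (limma 2876) and 6842 between 24 months and P75 (limma 6836). Removing the trend on transcript length (13483 genes with a length), the list counts without single samples and the likeness without P18 replicate 3 were added after seeing the data.

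The 10 genes, the lists and the naming rule were chosen with earlier results of these data known. Up to 4 genes of each list with the lowest F-test p were named, with Nes, Synm, Slc38a3, Aldoa, Stat3, Kcnj10 and Gja1 and the 3 genes most like each member. Some genes this rule names are not reported here. Dst, Lcn2, Timp1, Aspg, Hspb1, S100a8 and S100a9 fall outside this rule and were chosen after their values were seen. Transcript lengths come from GENCODE M21 and upstream sequences from RefSeq (GRCm38.p6). The labels give no batch, so no value within a batch could be had.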

Additional observations from a re-analysis of the deposited data

How the results depend on the processing

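Calls of Serpina3n and Slc1a3 at 6 months and 24 months against P75, of Serpina3n at 24 months against 6 months, of Aldoc at 6 and 24 months against P75, of Vim at P75 against P18 and at 6 months against P75, and of Gfap at P75 against P18 and at 24 months against P75 kept direction and threshold in all 25 alternatives. Calls of Gfap and Vim at 24 months against 6 months depended on single samples. Limits are the 3 samples per age, the low counts of Lcn2, Timp1, Cxcl10, S100a8 and S100a9, and P18 replicate 3.

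Genes called at 24 months against 6 months numbered 2876, 1782 with equal sums, and 1230 to 3966 without single samples; the omission of 24 months replicate 2 gave 1230, that of 6 months replicate 1 gave 1279, that of 6 months replicate 2 gave 1495 and that of 24 months replicate 1 gave 1510. Of the 10 genes, 1 was called there with the length trend removed, and 1 to 3 without single samples. At P75 against P18, 5 were called with equal sums, where 3 were called otherwise, and 2 to 5 without single samples. The cause was not tested.

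The values that changed sign were all of differences that did not pass. With libraries scaled to equal sums, Aldoc stood at -0.007 at 24 months against 6 months (log2; also -0.007 leaving oligodendrocyte markers out of the sums) and at 0.025 at P75 against P18. With quantile normalization, Aldoc stood at -0.039 at 24 months against 6 months, Gfap at -0.010 and S100b at 0.128 at 6 months against P75, and Slc1a2 at -0.080 at P75 against P18. With the length trend removed, these were -0.036, -0.016, 0.213 and -0.087, and Slc1a2 stood at -0.122 at 6 months against P75. With edgeR, S100b stood at 0.003 at 6 months against P75. Leaving out single samples gave, at 24 months against 6 months, -0.007 to 0.104 for Aldoc, -0.144 to 0.049 for Aqp4 and -0.121 to 0.039 for Glul. At 6 months against P75 it gave -0.073 to 0.041 for Aldh1l1, -0.156 to 0.162 for Gfap and -0.198 to 0.158 for S100b. At P75 against P18 it gave -0.156 to 0.573 for Aqp4 and -0.048 to 0.128 for Slc1a2.

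Samples with the same replicate number did not pair: their deviations correlated at -0.185 to 0.165, above 0.1 in 3 of 18 pairs. With the replicate number as a block, 2583 genes were called at 24 months against 6 months, and of 50 results 1 call changed, Aldh1l1 at 24 months against P75 (log2 -0.20, limma adjusted p = 0.0489).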
